A study of Mus musculus with 6 samples.

Results

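The genes described here are the matrix metalloproteinases (Mmp), the Adamts proteases, the Adamts-like proteins (Adamtsl) and the tissue inhibitors of metalloproteinases (Timp) of the mouse. They were taken by symbol from the annotation of the array, as every gene whose name starts with Mmp, Adamts, Adamtsl or Timp followed by a number, and gave 42 genes of the 18193 that the array names. A further 10 genes of these families were not analysed here. The 42 genes are read by 78 probe sets, and where a gene has several, the brightest of them on average stands for it.

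The cells were commercial mouse mesenchymal stem cells in a medium that held 1 µM rosiglitazone, 5 µg/ml insulin, 100 µM IBMX and 1 µM dexamethasone, agents that drive fat cell formation. The agents were added again 48 h before the exposure to irradiated and control cultures alike. Irradiated cultures received pulsed broadband terahertz radiation, centred near 10 THz, for 12 h at an average of 1 mW/cm2 and 1 kHz, and control cultures stood next to them without it. Both were held at 26 to 27 °C. There were 3 independent experiments, each with 1 irradiated and 1 control array, and RNA was taken as soon as the exposure ended. The question is whether the transcripts of the matrix proteases and their inhibitors differed between irradiated cells and their own controls.

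Mmps and Adamts proteases are zinc-dependent enzymes that cut the matrix around cells. Most are made as latent precursors that need removal of a propeptide, so transcript level is only 1 layer of their control. Mmps cut collagens, gelatin, elastin and other matrix proteins, and several Adamts proteases cut aggrecan and versican, large proteoglycans that bind hyaluronan. Adamts-like proteins have a related domain layout without the catalytic part, and several bind microfibrils. Timps are secreted proteins that block the active site, and Timp3 also blocks several Adamts and Adam proteases. Fat cell formation goes with a rebuilding of the collagen matrix, in which Mmp14 has a known part.

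Values are on the deposited log2 scale, 1 per probe set, and a difference is the mean of the 3 paired differences, irradiated minus control, with the SE of a limma fit. Since probe sets differ in how brightly they bind, no gene's level is set against another's. Array medians lay between 4.74 and 4.80. Probes for RNA added at hybridisation (18 probe sets) differed between the irradiated and control array by 0.08 in experiment 1, -0.03 in experiment 2 and 0.50 in experiment 3. Of the stromal markers 8 of 9 were at a mean of at least 6 in 1 group, with Thy1 at a control mean of 4.11, and all 7 fat cell markers were. All 10 macrophage markers were too, with control means from 7.11 to 14.21, among them Lyz2 at 14.21 and Csf1r, the receptor of a macrophage growth factor, at 13.03. The labelled cell type and the macrophage markers therefore occur together in these arrays, and the share of each cell type was not measured. In such mixed RNA a smaller share of cells and less RNA per cell cannot be told apart.

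Of the 42 genes, 23 reached a mean of 6 in 1 group (54.8%), against 51.1% of all genes. The 23 were 10 Mmps, 7 Adamts, 3 Adamts-like and 3 Timp genes. Mmp8 reached that level only in the controls and Adamts16 only in the irradiated arrays, at group means of 5.96 and 6.08. No probe set of the array passed an adjusted p of 0.05 by limma (0% of 45037, smallest adjusted p 0.188), and 3631 had an unadjusted p under 0.05. No gene below is therefore called changed, and the unadjusted p values are given for the order they set. An unadjusted p under 0.05 was found for 5 of the 42 genes (11.9%), against 8.31% of all genes. All 5 were among the 23 brighter genes, where the background was 10.8%. Mmp8, Mmp12 and Mmp3 were lower in irradiated cells, and Adamts1 and Adamts5 were higher.

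Other counts were read against the same background. The 3 paired differences had 1 sign in 15 of the 42 genes (35.7%), 8 higher and 7 lower, against 30.8% of all genes. The irradiated and control values did not overlap in 6 genes (14.3%), 1 above and 5 below, against 9.96%. A difference of at least 1.2-fold was found in 9 genes (21.4%), against 10% of all genes. The median difference was 0.04 over the 42 genes and 0.01 over all genes. In 20 of the 23 brighter genes the range over the 3 controls was wider than the difference, as it was in 82.9% of all genes at that level.

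**Figure D1:**
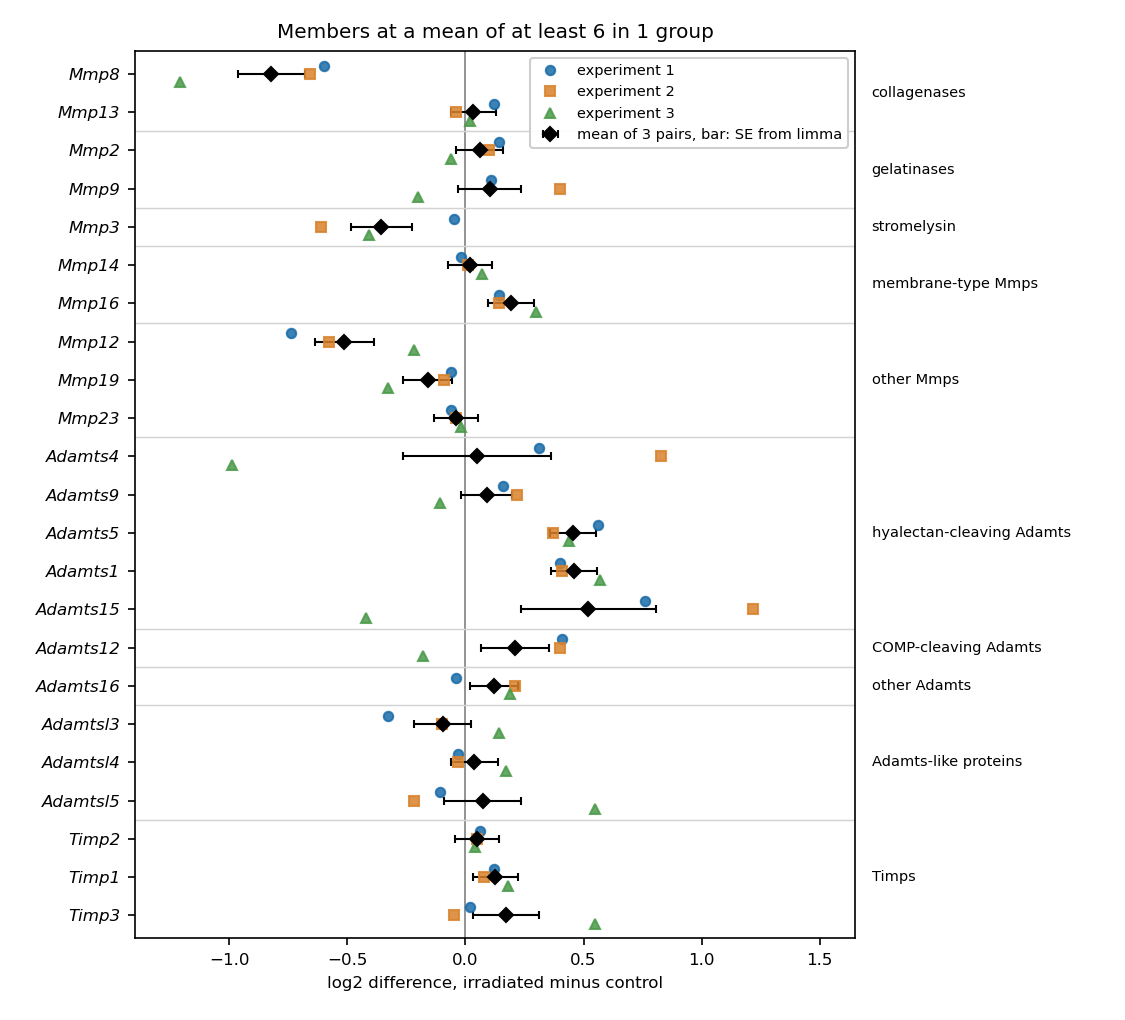
Paired log2 differences (x axis, irradiated minus control) of the 23 genes with a mean of at least 6 in 1 group, by role. Coloured points are the 3 experiments, and the diamond is their mean with the SE from limma. Mmp8 lies farthest to the left at -0.82, and Adamts1 and Adamts5 have 3 points each between 0.37 and 0.57.

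Among the collagenases, which make the first cut in fibrillar collagen, Mmp8 and Mmp13 stood apart from each other. Mmp8, known as neutrophil collagenase, was at 5.64, 6.10 and 6.74 in the controls of experiments 1 to 3 and at 5.04, 5.44 and 5.53 in the irradiated arrays. Every irradiated value was below every control value, and the controls spread more widely than the irradiated arrays, with group means of 6.16 ± 0.55 and 5.34 ± 0.26 (SD, n = 3 each). The paired differences were -0.60, -0.66 and -1.21, with a mean of -0.82 ± 0.14 (SE, 95% interval -1.16 to -0.48), which is 1.77-fold lower. By limma the unadjusted p was 0.000858 and the adjusted p was 0.516. Mmp8 is read by 1 probe set near the level where signal becomes dim. Of the neutrophil markers 1 of 5, S100a8, was at the level of 6 or above.

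Mmp13, the main collagenase of rodent connective tissue, had values of 13.52, 13.48 and 13.51 in the controls and 13.64, 13.44 and 13.53 in the irradiated arrays. These groups overlapped, and the difference was 0.03 ± 0.10 (95% interval -0.20 to 0.26). Its signal lay near the upper end of the arrays, whose highest value was 14.53. The other collagenases, Mmp1a and Mmp1b, were dim, with control means of 2.40 and 2.60.

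The gelatinases, which cut unfolded collagen and basement membrane, gave small differences. Mmp2 was at 11.69, 11.41 and 11.53 in the controls and 11.83, 11.51 and 11.47 in the irradiated arrays, a difference of 0.06 ± 0.10 (95% interval -0.18 to 0.30). Mmp9 was at 9.68, 9.72 and 9.87 in the controls and 9.79, 10.12 and 9.67 in the irradiated arrays. Its irradiated value was the higher of the pair in experiments 1 and 2 and the lower in experiment 3. The mean difference was 0.10 ± 0.13 (95% interval -0.22 to 0.42), and a second probe set gave -0.14 ± 0.11, so the probe sets of Mmp9 did not give 1 direction.

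Mmp3, stromelysin-1, cuts proteoglycans and fibronectin and can activate latent collagenases. It was at 7.10, 6.89 and 7.0 in the controls and 7.05, 6.28 and 6.59 in the irradiated arrays. The groups overlapped because the irradiated array of experiment 1 lay within the controls. The differences of -0.05, -0.61 and -0.41 averaged -0.36 ± 0.13 (95% interval -0.67 to -0.05), 1.28-fold lower, with a limma p of 0.0307 and an adjusted p of 0.587. Leaving out experiment 2 gave -0.23 with a p of 0.190, and leaving out experiment 3 gave -0.33 with a p of 0.136, so Mmp3 does not keep a p under 0.05 without either. The related Mmp10, Mmp11 and Mmp7 were below the level of 6, and their differences were 0.00, 0.35 and -0.08.

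Mmp12, macrophage metalloelastase, cuts elastin. Its values were 8.01, 8.41 and 7.86 in the controls and 7.27, 7.83 and 7.64 in the irradiated arrays. All irradiated values lay below all control values, though irradiated 7.83 and control 7.86 nearly met. The group means were 8.09 ± 0.28 and 7.58 ± 0.28 (SD, n = 3 each). Its differences were -0.74, -0.58 and -0.22, with a mean of -0.51 ± 0.13 (95% interval -0.82 to -0.21), 1.43-fold lower, with a limma p of 0.00548 and an adjusted p of 0.538. Without experiment 1 the difference was -0.40 with a p of 0.0567.

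The macrophage markers moved with Mmp12 and Mmp8 in part. All 10 had a mean difference below 0, against 4521 of 9302 genes at that level. Lower in all 3 experiments were 4 of them, against 1744 of the 9302 genes. These markers were read on shared arrays, so their common sign gives no support of its own. The log2 of their summed linear level ran from 15.55 to 16.03 in the controls and from 15.38 to 15.86 in the irradiated arrays, with paired differences of -0.18, -0.03 and -0.18. Cd14, a receptor for bacterial lipopolysaccharide, was lower by the most, at -0.73 ± 0.19, while Lyz2 differed by -0.05 and Csf1r by -0.10. In experiment 2 the median difference of the 10 markers was 0.08, and in that experiment Mmp12 was at -0.58 and Mmp8 at -0.66. In experiments 1 and 3 the marker medians were -0.23 and -0.11. The part of the macrophage content in the values of Mmp12 and Mmp8 was not tested. By unadjusted limma p under 0.05, 1 of the 10 macrophage markers was lower and none higher. Of the 9 stromal markers 2 were higher and 2 lower, and of the 7 fat cell markers none was either, against 8.31% of all genes. Of the osteoclast markers only Acp5, an acid phosphatase shared with macrophages, was at the level of 6, and it differed by -0.36 ± 0.13. Of all 5 osteoclast markers, 3 had a difference above 0 and 2 below, with a median of 0.05.

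**Figure D2:**
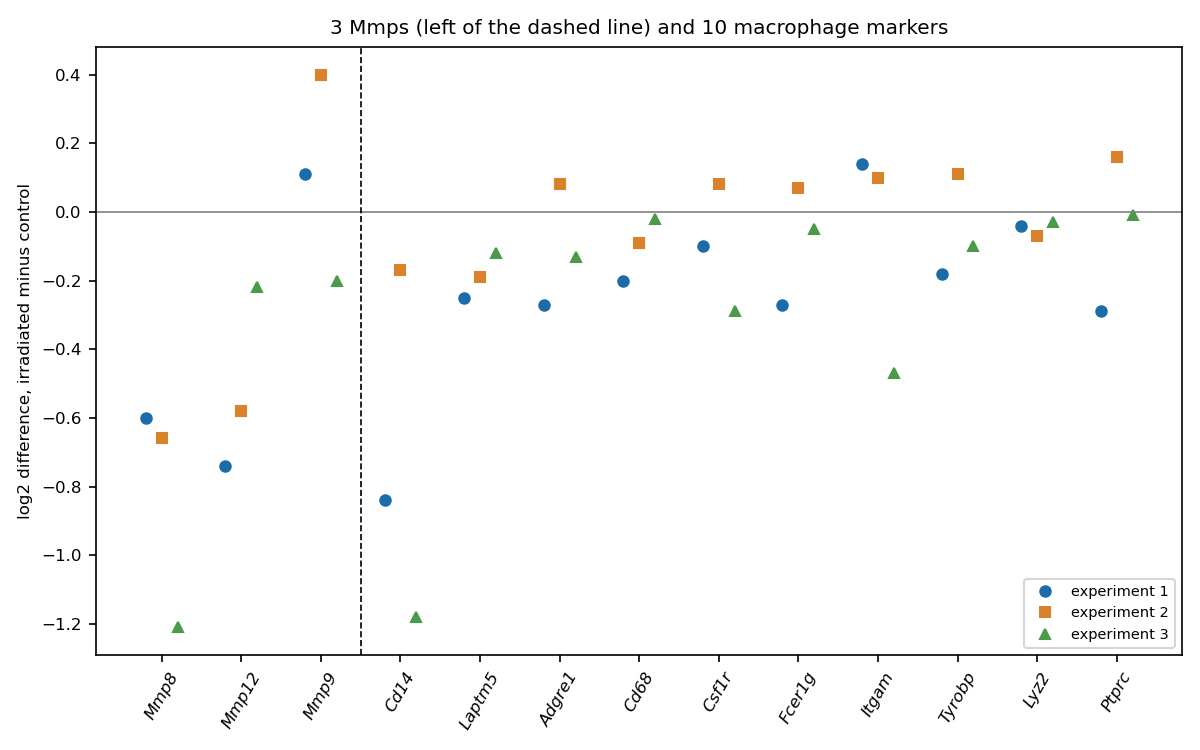
Log2 differences (y axis, irradiated minus control) of Mmp8, Mmp12 and Mmp9, left of the dashed line, and of the 10 macrophage markers, by experiment. In experiment 2 the markers had a median of 0.08, while Mmp8 was at -0.66 and Mmp12 at -0.58.

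The remaining Mmps included the membrane-type enzymes, which are anchored at the cell surface. Mmp14, which activates latent Mmp2 and cuts collagen, was at 10.08, 9.88 and 9.78 in the controls and 10.06, 9.89 and 9.85 in the irradiated arrays. The pairs were nearly equal, and the difference was 0.02 ± 0.09 (95% interval -0.21 to 0.25). Mmp16, another membrane-type enzyme, had group means of 7.59 and 7.78 and was higher in all 3 experiments, by 0.14, 0.14 and 0.30. Its mean difference was 0.19 ± 0.10 (95% interval -0.04 to 0.43), with overlapping groups. Another of its 4 probe sets gave 0.21 ± 0.11, and its dim probe sets gave 0.33 ± 0.12 and 0.08 ± 0.13. Mmp19 had group means of 7.14 and 6.98, with differences of -0.06, -0.09 and -0.33 and groups that did not overlap, but a second probe set gave 0.05. Mmp23 differed by -0.04 ± 0.09. Over all 18 measured Mmps, 9 differences were above 0 and 8 below, with a median of 0.01. Over the 10 brighter ones, Mmp8 included through its controls, 5 were above and 5 below.

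In the RefSeq annotation of assembly GRCm38.p6, Mmp13, Mmp12, Mmp1b, Mmp3, Mmp1a, Mmp10 and Mmp8 follow each other among the protein-coding genes of chromosome 9, with Mmp20 and Mmp7 just beyond. The array names 9 genes of this cluster, of which 4 reached a mean of 6 (Mmp13, Mmp12, Mmp3 and Mmp8). The 3 Mmps with an unadjusted p under 0.05 were all among these 4 neighbours, while Mmp13 in the same cluster differed by only 0.03. Promoters of this cluster are known for a binding motif of the transcription factor AP-1, a dimer of Fos and Jun proteins. The motif was searched as TGANTCA, where N is any base. The 150 bases before the start site are shown for those 4 genes, 5′ to 3′ on the strand of the gene, from RefSeq on GRCm38.p6. Capitals mark the motif where it occurs. All 4 genes are on the plus strand: Mmp3 at chr9:7445672-7445821, Mmp12 (the second of its start sites) at chr9:7347224-7347373, Mmp13 at chr9:7272364-7272513 and Mmp8 at chr9:7558279-7558428.
Mmp3: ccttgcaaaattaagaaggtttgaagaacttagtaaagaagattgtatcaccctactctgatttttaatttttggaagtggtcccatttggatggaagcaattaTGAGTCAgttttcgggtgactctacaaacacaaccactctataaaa
Mmp12: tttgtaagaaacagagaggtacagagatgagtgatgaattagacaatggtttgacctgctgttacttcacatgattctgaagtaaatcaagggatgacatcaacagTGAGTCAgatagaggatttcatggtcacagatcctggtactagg
Mmp13: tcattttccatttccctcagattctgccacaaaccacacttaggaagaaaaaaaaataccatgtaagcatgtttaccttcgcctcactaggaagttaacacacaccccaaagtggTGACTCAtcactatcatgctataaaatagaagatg
Mmp8: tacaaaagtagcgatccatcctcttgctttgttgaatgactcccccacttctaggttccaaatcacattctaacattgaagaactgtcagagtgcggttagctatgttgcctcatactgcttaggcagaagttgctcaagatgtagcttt

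The motif began 46 bases before the start of Mmp3, 44 bases before the second start of Mmp12 and 35 bases before the start of Mmp13. It was not in the window of Mmp8 or of the first start of Mmp12. The differences of these genes were -0.36 for Mmp3, -0.51 for Mmp12, 0.03 for Mmp13 and -0.82 for Mmp8. Mmp12 holds the letters only before its second start. Whether the motif has a part in these differences was not tested. The search covered both strands of the 250 bases before each start, and since TGANTCA is its own reverse complement, each position was counted once. Of the 42 genes 27 had a promoter in the table, and 8 of these held the motif (29.6%), against 2113 of 27025 genes (7.82%). All 8 lie in the chromosome 9 cluster, where Mmp8 was the exception among 9. Among the 15 brighter genes with a promoter, 3 held it (20%). Mmp10, Mmp1a, Mmp1b, Mmp20 and Mmp7 also held it, and all of these were dim. Mmp7 held it only before the first of its start sites. A gene was counted as holding the motif if any of its start sites did. In Mmp20 the letters were TGAATCA, and in the other dim genes TGAGTCA. A match is a description of the letters and does not show that a factor was bound.

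**Figure D3:**
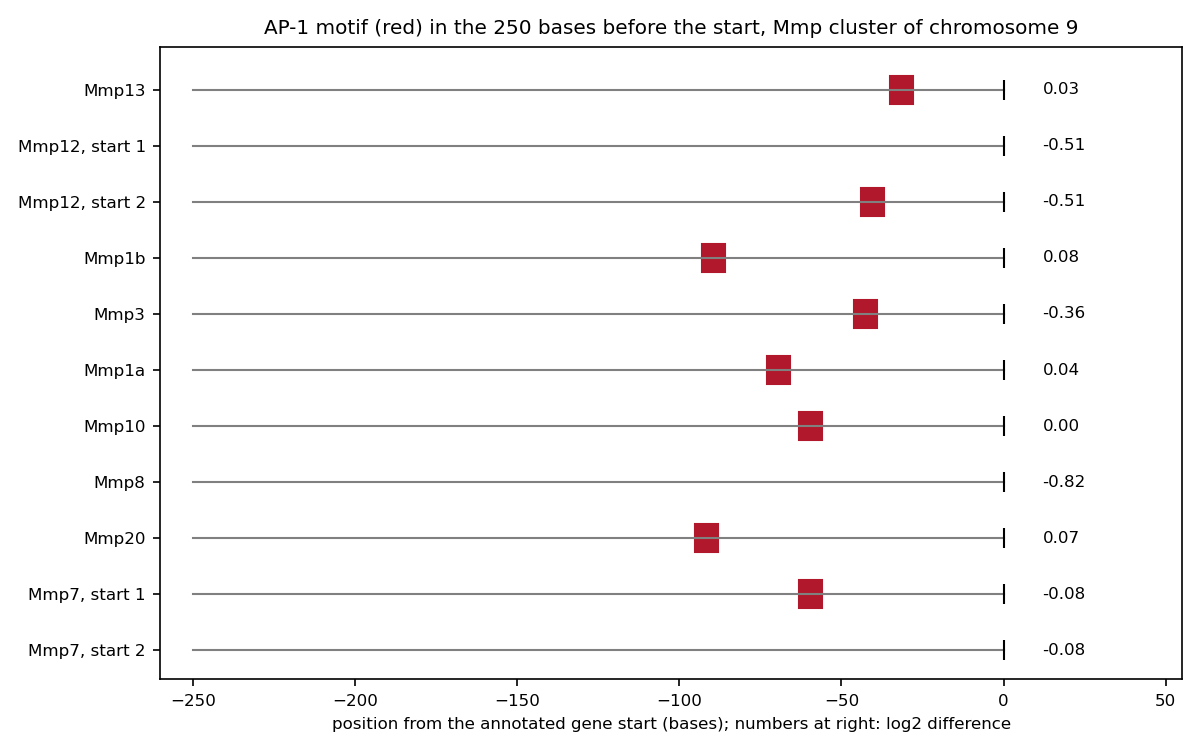
Distance of the AP-1 motif from the start site (x axis, bases) in the promoters of the chromosome 9 Mmp genes, 1 line per gene or start site, with the log2 difference of the gene at the right. The motif begins between 35 and 95 bases before a start in the 8 genes that hold it, and the window of Mmp8 holds none. The windows of the first start of Mmp12 and the second start of Mmp7 hold none either.

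The transcription factors known to bind protease promoters were measured as a list of 14 genes. By unadjusted p under 0.05, 1 was higher and 2 were lower, against 8.31% of all genes in either direction. Fosl2, an AP-1 subunit, was higher by 0.42 in each of the 3 experiments, with a mean of 0.42 ± 0.09 (limma p 0.00325). Jun, another AP-1 subunit, differed by -0.42, -0.04 and -0.45, with a mean of -0.30 ± 0.12 (limma p 0.0395). Ets2, an Ets family factor that acts beside AP-1 at several Mmp promoters, differed by -0.57 ± 0.13 (limma p 0.00470). The AP-1 subunits therefore did not share 1 direction, and none of the 14 passed an adjusted p of 0.05.

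Of the 15 measured Adamts genes 9 had a mean difference above 0 and 6 below, with a median of 0.05, and of all 18193 genes 9299 were above 0 and 8721 below. The 6 below were all dim. The 7 brighter Adamts genes were all above 0, with Adamts16 among them only through its irradiated mean. In experiments 1, 2 and 3 their median differences were 0.40, 0.40 and -0.11. The genes were measured on shared arrays, so their common sign gives no support of its own. Adamts1, which cuts versican and aggrecan, was at 10.16, 10.15 and 10.01 in the controls and at 10.56, 10.56 and 10.58 in the irradiated arrays. Every irradiated value was above every control value, and the group means were 10.11 ± 0.08 and 10.57 ± 0.01 (SD, n = 3 each). The differences of 0.40, 0.41 and 0.57 averaged 0.46 ± 0.10 (95% interval 0.23 to 0.69), 1.38-fold higher, with a limma p of 0.00264 and an adjusted p of 0.530. Adamts1 was the 1 gene of the 42 whose irradiated values all lay above its controls. It is read by 1 probe set.

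**Figure D4:**
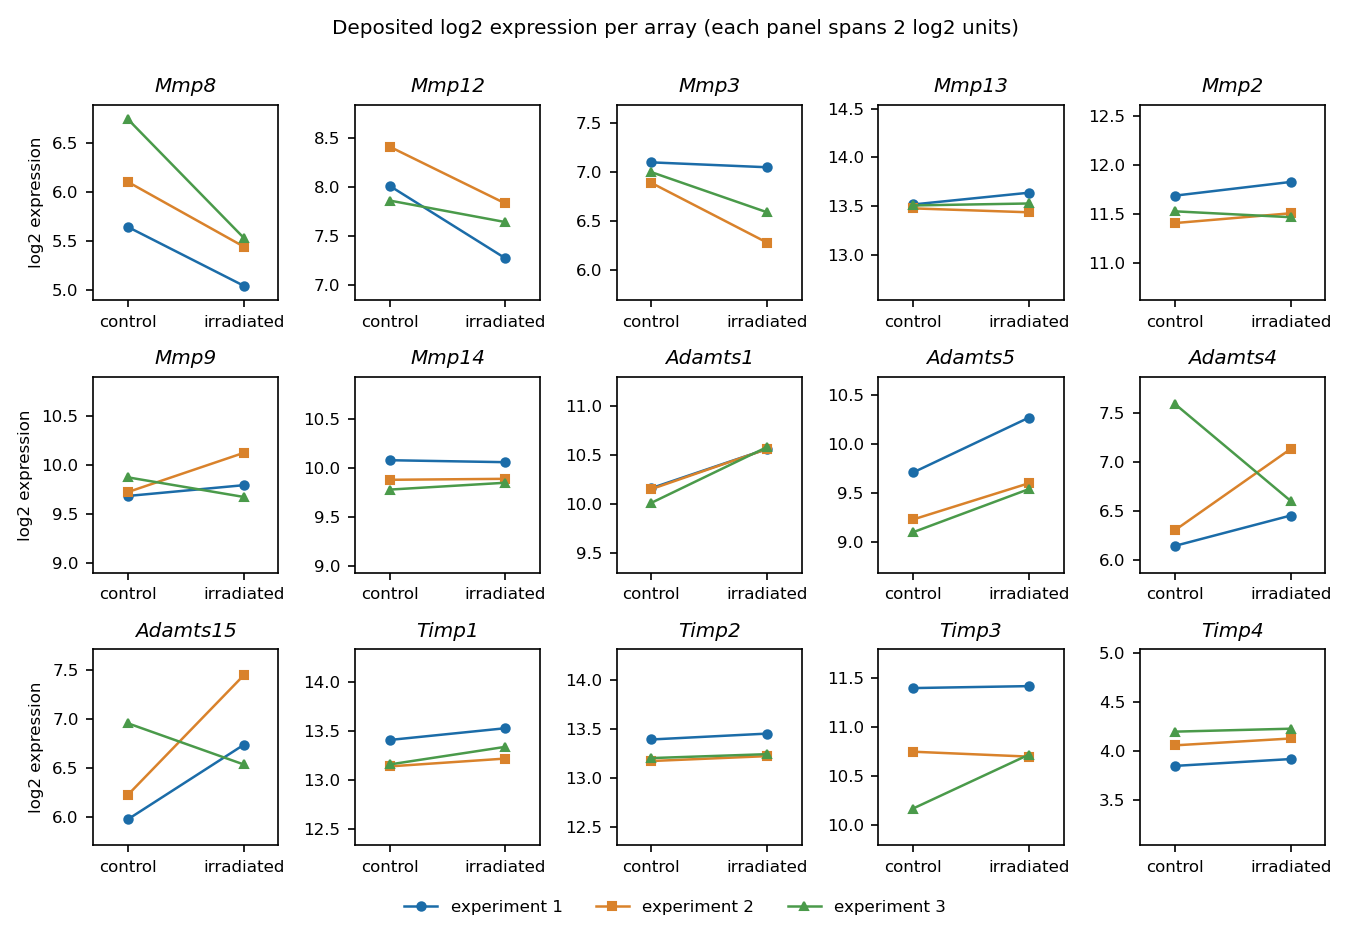
Log2 expression (y axis) on the 6 arrays of the genes whose value is given for every array, in panels that each span 2 log2 units, with lines joining the control and irradiated array of an experiment. The 3 lines of Adamts1 end between 10.56 and 10.58, and those of Mmp8 end between 5.04 and 5.53.

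Adamts5, the main aggrecanase of mouse cartilage, lies next to Adamts1 on chromosome 16 with no protein-coding gene between them in that annotation. Its values were 9.71, 9.23 and 9.10 in the controls and 10.27, 9.60 and 9.54 in the irradiated arrays. The groups overlapped because experiment 1 was higher in both, but each irradiated array was above its own control, by 0.56, 0.37 and 0.44. The mean difference was 0.46 ± 0.10 (95% interval 0.22 to 0.69), 1.37-fold higher, with a limma p of 0.00276 and an adjusted p of 0.530. Of its other 3 probe sets, 1 gave a wider difference. That probe set was at 9.20, 8.64 and 8.28 in the controls and 10.00, 9.41 and 9.10 in the irradiated arrays, a difference of 0.80 ± 0.09 (limma p 8.88e-05, adjusted p 0.360), or 1.74-fold. Another gave 0.50 ± 0.13. The dimmest, at a control mean of 2.32, gave 0.21 ± 0.13, with differences of -0.01, 0.12 and 0.51. The mean difference of Adamts5 was thus above 0 in all 4 probe sets, from 0.21 to 0.80. The dimmest did not keep 1 sign over the experiments, while the others did.

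**Figure D5:**
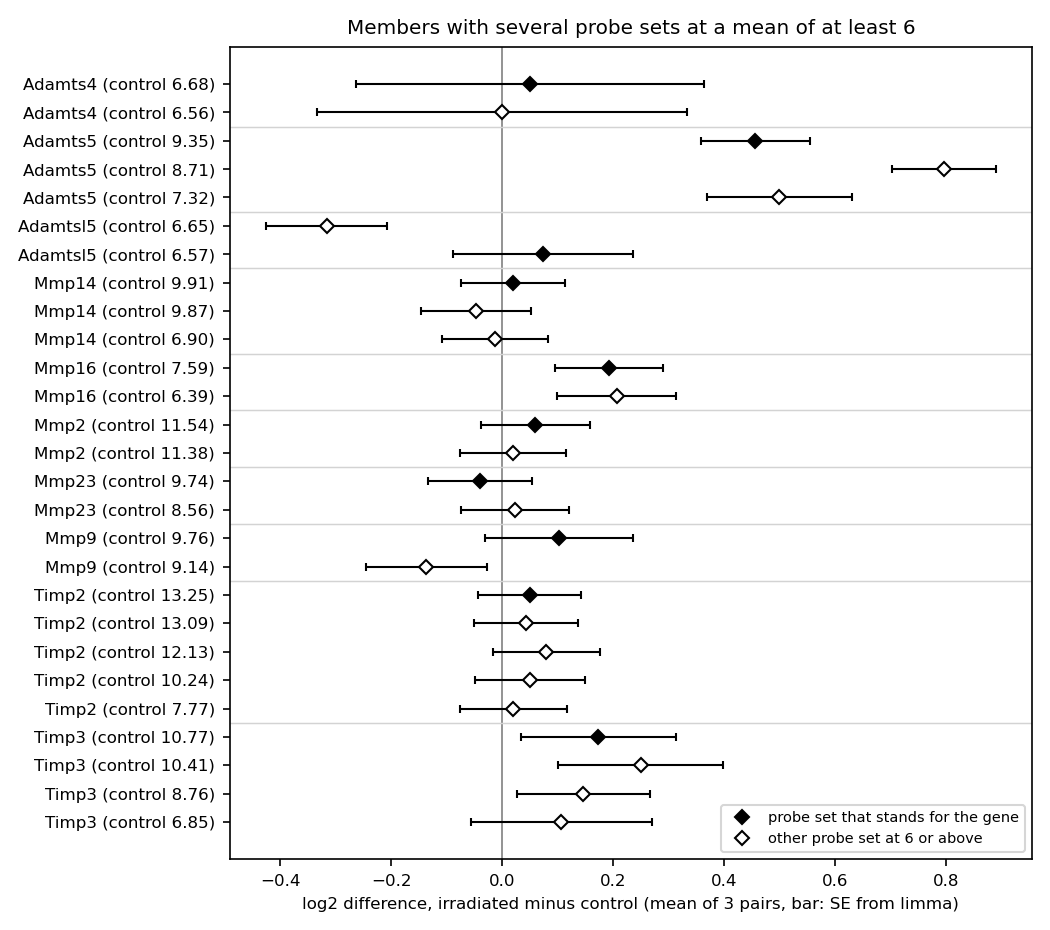
Log2 difference (x axis, irradiated minus control, mean with SE from limma) of probe sets at a mean of at least 6, for genes with more than 1 of them. Filled diamonds stand for the gene elsewhere. The 3 probe sets of Adamts5 at that level lie between 0.46 and 0.80, while the probe sets of Mmp9 lie on both sides of 0.

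The 150 bases before the start of Adamts1, at chr16:85803114-85803263 on the minus strand, are shown for comparison with the Mmp promoters. They hold no AP-1 motif.
Adamts1: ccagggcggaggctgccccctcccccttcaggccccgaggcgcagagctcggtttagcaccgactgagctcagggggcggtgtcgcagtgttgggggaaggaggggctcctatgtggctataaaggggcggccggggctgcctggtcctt

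The other 3 brighter proteases that cut aggrecan or versican, Adamts15, Adamts4 and Adamts9, did not keep 1 sign over the experiments. Of the dim ones, Adamts20 was higher in all 3, by 0.02, 0.34 and 0.23, at a control mean of 2.21, and Adamts8 differed by -0.04. Adamts15 was at 5.98, 6.23 and 6.96 in the controls and 6.74, 7.45 and 6.54 in the irradiated arrays. Its paired differences of 0.76, 1.22 and -0.42 averaged 0.52 ± 0.29 (95% interval -0.17 to 1.21, limma p 0.115), with overlapping groups. Adamts4, another aggrecanase, was at 6.14, 6.30 and 7.59 in the controls and 6.45, 7.13 and 6.60 in the irradiated arrays. The control of experiment 3 was the highest of these values, and the differences of 0.31, 0.83 and -0.99 averaged 0.05 ± 0.31 (95% interval -0.70 to 0.80). A second probe set of Adamts4 gave the same pattern, from 0.88 in experiment 2 to -1.09 in experiment 3. Adamts9, which cuts versican, differed by 0.16, 0.22 and -0.11, with a mean of 0.09 ± 0.11. Adamts12, which cuts cartilage oligomeric matrix protein, differed by 0.41, 0.40 and -0.18, with a mean of 0.21 ± 0.14. Adamts16 differed by 0.12 ± 0.10, but its second, dim probe set, at a control mean of 3.87, was lower in all 3 experiments, at -0.37 ± 0.10 (limma p 0.00821, adjusted p 0.538). The probe sets of Adamts16 thus did not give 1 direction.

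Experiment 3 thus stood apart for the Adamts genes. Across the 7 brighter Adamts genes, Pearson's r of the differences came to 0.71 for experiments 1 and 2, to -0.08 for 1 with 3 and to -0.62 for 2 with 3. The 10 brighter Mmp genes gave 0.79, 0.64 and 0.67 for the same pairs. Over all 9302 genes at that level r was 0.52, 0.31 and 0.07. These r values describe genes measured on shared arrays, which are not independent points. Without experiment 3, 9 of the 42 genes had an unadjusted p under 0.05, 7 of them among the 23 brighter genes, where 10.2% of all genes at that level did. The 7 were Adamts1, Adamts5, Adamts12, Adamts15, Adamts4, Mmp12 and Mmp8, and Adamts15 and Adamts4 then differed by 0.99 and 0.57. The irradiated array of experiment 3 is also the one with hybridisation probes 0.50 above its control, and the part of that in the result was not tested. Adamts1 and Adamts5 were higher in experiment 3 as well, at 0.57 and 0.44.

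The 3 brighter Timps were nearly level. Timp1 was at 13.41, 13.14 and 13.16 in the controls and 13.53, 13.22 and 13.34 in the irradiated arrays. It was higher within each pair, by 0.12, 0.08 and 0.18, with a mean of 0.13 ± 0.09 (95% interval -0.10 to 0.35) and a limma p of 0.224. Timp2, which also takes part in the activation of Mmp2 by Mmp14, was at 13.39, 13.17 and 13.20 in the controls and 13.45, 13.22 and 13.24 in the irradiated arrays. Its differences of 0.06, 0.05 and 0.04 averaged 0.05 ± 0.09 (95% interval -0.17 to 0.27). For both, the experiments spread more widely than irradiated and control arrays did.

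Timp3, which binds to the matrix, was the most variable Timp. It was at 11.40, 10.75 and 10.17 in the controls and 11.42, 10.70 and 10.72 in the irradiated arrays. The controls spanned 1.23, and the mean difference was 0.17 ± 0.14 (95% interval -0.16 to 0.51), with 0.55 in experiment 3 and 0.02 and -0.05 in experiments 1 and 2. Its 4 probe sets gave means from 0.11 to 0.25. Timp4 was dim, at 3.85, 4.06 and 4.20 in the controls and 3.92, 4.13 and 4.23 in the irradiated arrays.

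Among the Adamts-like genes, Adamtsl4, which binds fibrillin microfibrils, differed by 0.04 ± 0.10 and Adamtsl3 by -0.10 ± 0.12. Adamtsl5 differed by -0.11, -0.22 and 0.55 on its brighter probe set over all arrays, with a mean of 0.07 ± 0.16. Its other probe set, of like brightness, gave -0.32 ± 0.11, so Adamtsl5 has no settled direction here. The 19 genes below the level of 6 had mean differences from -0.39 (Adamts3) to 0.35 (Mmp11). They were Adamts3, Adamts6, Adamts7, Adamts8, Adamts10, Adamts18, Adamts19, Adamts20, Adamtsl1, Adamtsl2, Mmp1a, Mmp1b, Mmp7, Mmp10, Mmp11, Mmp17, Mmp20, Mmp24 and Timp4. Adamts7 and Adamts18 among them had groups that did not overlap, at -0.20 and -0.32, at control means of 4.49 and 3.24.

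The 8 lists of genes that work with these proteases were measured for 100 genes. By unadjusted p under 0.05 3 were higher and 2 lower, so 5 of 100 in all, which is below the 8.31% of all genes, and none passed an adjusted p of 0.05. Of 11 genes of the plasminogen system and other activators of latent proteases none did. Plaur, the urokinase receptor, was at -0.28 ± 0.13, Plau, urokinase itself, at 0.23 ± 0.12, and Furin, a convertase that removes propeptides, at -0.19 ± 0.10. Of 16 inhibitors, anchors and clearance receptors 1 was higher and none lower. Of the 16, 11 had a difference above 0 and 5 below. The 9 of them at a mean of 6 were all above 0, against 4701 of 9302 genes at that level. The smallest of these differences was 0.02, in Cd44. Higher in all 3 experiments were 5 of the 9, against 1726 of the 9302 genes. The 9 genes were read on shared arrays, so their common sign gives no support of its own. Among them were Thbs2, a matrix protein that binds Mmp2, at 0.27 ± 0.11 (limma p 0.0430), the related Thbs1 at 0.28 ± 0.14 and Reck, a membrane inhibitor of Mmps, at 0.12 ± 0.10.

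None of 24 matrix substrates had an unadjusted p under 0.05, and their median was 0.08. Vcan, versican, the substrate of several Adamts proteases above, was at 0.27 ± 0.11, Col5a1 at 0.23 ± 0.10 and Col18a1, a basement membrane collagen, at -0.28 ± 0.12. Of 12 ADAM genes and their partners, Adam22 was higher at 0.24 ± 0.10 (limma p 0.0497), Adam8 was at -0.25 ± 0.13 and Rhbdf2, a partner of Adam17, at -0.22 ± 0.11. None of 10 cathepsins and related genes, 7 procollagen-processing genes or 6 microfibril partners had an unadjusted p under 0.05. Ctss, a cathepsin abundant in macrophages, was at -0.17 ± 0.10, Cstb, a cathepsin inhibitor, at -0.11 ± 0.12 and Ctsk, a collagen-cutting cathepsin, at -0.07 ± 0.10. Bmp1, the procollagen C-proteinase, was at 0.11 ± 0.09 and its enhancer Pcolce at 0.02 ± 0.11, and the microfibril proteins Mfap2, Ltbp1 and Ltbp3 were at -0.07 ± 0.09, 0.05 ± 0.10 and 0.06 ± 0.11.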

How the data were processed

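Expression was measured on 6 Affymetrix mouse arrays from 200 ng of total RNA each, per the labels' protocols. The authors deposited log2 values per probe set, made with RMA and the affy package, with limma named beside them, per the submitters' processing notes. The sources used here give neither versions nor a genome build. RMA makes arrays comparable and can compress differences at both ends of the scale.

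The 64 array controls were left out, which leaves 45037 probe sets, of which 34945 carry 1 gene symbol. A limma fit (version 3.58.1, R 4.3.3, lmFit and eBayes, two-sided tests) took the experiment as a block. P-values were adjusted by Benjamini-Hochberg over all probe sets. The fit was tested on simulated data. The block follows the design text, which gives each irradiated culture its own control. The deviations of the pairs from their group means correlated at 0.63, 0.01 and 0.24. Irradiated array 2 correlated better with control 3, at 0.43, than with its own control, so the values bear the pairing out only in part and it rests on that text. All 42 symbols matched RefSeq.

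The genes and lists were chosen with earlier results of these data known. Values on every array are given for genes at a mean of 6 with an unadjusted p under 0.05, for the Timps and for a fixed set of Mmp and Adamts genes, and Adamts4, Adamts15 and the named cell markers were added after their values were seen. From each list up to 3 genes at a mean of 6 with the largest statistic are named. Protein sequences were not used here. Alternatives were other blocks, other scalings, other probe set rules and each experiment left out. Figures are from matplotlib 3.10.9 (Python 3.11.15).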

Additional observations from a re-analysis of the deposited data

How the results depend on the processing

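None of the 42 genes passed an adjusted p of 0.05 under any alternative tried, and the lowest adjusted p was 0.179, for Adamts1 with an intensity trend and a robust prior. Over the whole array 15 probe sets passed with an ordinary paired statistic and 2 with the replicate block as a random effect. The deposited values are rounded, and a probe set with 3 equal differences has no spread and can pass the ordinary statistic by construction. How many of the 15 passed in this way was not counted. The number of genes at an unadjusted p under 0.05 was 5 in the fit used above and 4 with no replicate block. With the block as a random effect it was 6, and it ran from 4 to 9 when each experiment was left out. The background moved as well. Among the 23 brighter genes 3 were at that p with no block, where 6.19% of all genes at that level were. With the random block it was 5, against 10.3%. Without experiments 1, 2 and 3 it was 4, 4 and 7, against 4.24%, 6.13% and 10.2%. Adamts1 had an unadjusted p under 0.05 under every alternative run, while Adamts5 had 0.0786 and Mmp3 0.0911 with no replicate block. With the ordinary paired statistic Mmp8 had 0.0513, Mmp12 0.0792 and Mmp3 0.161, while Timp2 had 0.0131 and Timp1 0.0488. Timp1 also had 0.0265 with the intensity trend and robust prior. The differences of Timp2 and Timp1 were unchanged in these runs, at 0.05 and 0.13. The median difference of the 42 genes ran from 0.0025 to 0.0425 when each experiment was left out. Of 155 alternative values of the 13 genes that the naming rule gives on every array, 149 kept their direction and 6 turned it. Many of the 155 could not turn, because another block, prior, statistic or choice of tested probe sets leaves the mean difference the same. The 6 turns were in Mmp13, Mmp14, Mmp9 and Timp3, with an experiment left out or with the mean of a gene's probe sets. Of the genes added to the 13, Adamts4 turned too, to -0.08 without experiment 1 and -0.34 without experiment 2. It was at 0.57 without experiment 3, while Adamts15 ran from 0.17 to 0.99. Mmp13 ran from -0.01 to 0.07, Mmp14 from -0.005 to 0.04, Mmp9 from -0.045 to 0.255 and Timp3 from -0.015 to 0.285 with each experiment left out. With the mean of a gene's probe sets, Mmp14 was at -0.013 and Mmp9 at -0.017. The cause of these turns was not tested. The 3 pairs limit the precision, and dim or very bright probe sets can hide differences.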
